A study of Mus musculus with 15 samples.

Results

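The proteins of the cytosolic ribosome are encoded by a family of short, highly expressed genes. They were taken here as the genes whose symbol is Rps or Rpl followed by a number, with an optional a or x, plus Rplp0, Rplp1, Rplp2 and Rpsa. This rule found 76 of the 22063 genes in the deposited table, 30 of the small subunit and 46 of the large subunit, spread over 19 chromosomes, and all 76 were above the level set for testing. Colon RNA of wild-type C57BL/6 mice was sequenced in 15 libraries, 5 labelled Control, 5 labelled AOM/DSS and 5 labelled WMW-H. AOM/DSS stands for azoxymethane, a carcinogen, with dextran sulfate sodium, which injures the colon lining, and the combination is a model of colitis-associated colorectal cancer. WMW-H is the treatment whose effect on that model the study set out to observe. The title names the herbal formula Wumei Wan, while the labels repeat neither AOM/DSS on the treated samples nor a dose, a time or the meaning of the H. The sources used here give neither age nor sex of the mice.

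The ribosome reads messenger RNA in its small subunit and joins amino acids in its large subunit, and most of its proteins are present in equal number. Many of these messages begin with a C and an unbroken run of pyrimidines, the 5′ terminal oligopyrimidine (TOP) motif, through which mTORC1 and LARP1 govern their translation. In the colon, ribosome production is high in the dividing crypt cells and is raised by Myc. Messenger RNA level, which is what was measured here, is only 1 of the layers that set ribosome number.

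The TOP motif is the best known sequence feature of this family, so the start sites were read first. Of the 76 genes, 56 matched the RefSeq table of start sites (build GRCm38.p6). A C at the annotated start followed by at least 4 pyrimidines (C or T), on the gene's strand, was found for 13 of the 56, or 23.2%. It was found for 281 of 10018 other tested genes, or 2.80%, and for 3.01% of all genes in that table. A C with at least 7 pyrimidines after it, anywhere within 20 bases on either side of the start, was found for 28 of the 56, against 16.2% of the other tested genes. The 7 windows below are those of Rps6 and of the 3 lowest and the 3 highest of the 13 in the WMW-H versus AOM/DSS comparison, in that order with Rps6 in the middle. Each runs from 10 bases before the start to 20 from it, with the C and its pyrimidine run in capitals.
Rplp2, chr7:141447641-141447670, plus strand: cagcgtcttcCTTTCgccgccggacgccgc
Rpl28, chr7:4792955-4792984, plus strand: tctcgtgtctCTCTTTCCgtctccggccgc
Rps21, chr2:180257369-180257398, plus strand: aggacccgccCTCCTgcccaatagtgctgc
Rps6, chr4:86857348-86857377, minus strand: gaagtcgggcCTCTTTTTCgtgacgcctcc
Rpl38, chr11:114668570-114668599, plus strand: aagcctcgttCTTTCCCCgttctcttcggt
Rpl35a, chr16:33056472-33056501, plus strand: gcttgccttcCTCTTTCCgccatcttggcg
Rpl35, chr2:39005112-39005141, minus strand: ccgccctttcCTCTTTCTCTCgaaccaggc
The 7 were taken from the 13 genes with the motif, so they show its form and not how often it occurs at either end of the comparison. The 13 genes with the motif at the start had a median log2 difference of 0.05 between WMW-H and AOM/DSS, and the 43 without it also had 0.05. The 2 medians were 0.19 and 0.17 for AOM/DSS against Control, and 0.25 and 0.21 for WMW-H against Control. This split rests on the exact annotated start, while 28 of the 56 had a pyrimidine run within 20 bases of it. The 43 may therefore hold TOP messages, and the similar medians show nothing about TOP control.

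Some facts of the libraries touch every result below. Depth, read from the steps between low values, was 16364000 to 21138000 fragments, and 16377 to 16692 genes were above 0. The labels give colon epithelial cells as the cell type. Markers of colon epithelium summed to between 10619 and 12491 FPKM (fragments per kilobase of transcript, scaled to depth) over the libraries, but markers of smooth muscle summed to between 2329 and 2483 FPKM. Digestive enzymes and hormones of the pancreas, without Zg16, which goblet cells also make, summed to 32026 to 32708 FPKM in Control, 7344 to 7587 in AOM/DSS and 12555 to 12939 in WMW-H, and 22 of 22 of these genes were above 0 in some library. Markers of male accessory glands summed to 2867 to 3023 FPKM in AOM/DSS, against 30.4 to 67.7 in the other groups. The pancreas sums of each group, and the gland sums of AOM/DSS, thus lay close together between libraries. The labels do not say that the libraries of a group came from separate animals, so the p-values below measure only the spread between libraries. Those of dividing cells summed to 185 to 194 FPKM in Control, 186 to 192 in AOM/DSS and 188 to 210.2 in WMW-H, and those of fibroblasts to 242 to 248, 376 to 394 and 442 to 485. Macrophage markers summed to 226 to 245 FPKM in Control, 395 to 427 in AOM/DSS and 329 to 359.7 in WMW-H, and B cell markers to 29.6 to 35.5, 29.1 to 31.8 and 13.3 to 15.8. Paneth cell markers summed to 1327 to 1363 FPKM in Control, 1698 to 1789 in AOM/DSS and 1405 to 1553 in WMW-H. Of 14 tested Paneth cell genes 13 were higher in AOM/DSS than in Control and 1 was lower, at -1.50. The median log2 difference was 4.92, a median over genes that does not give the change of the sum. From AOM/DSS to WMW-H 13 were lower and 1 was higher. Of all tested genes 45.5% were higher in AOM/DSS than in Control, and 40.9% were lower in WMW-H than in AOM/DSS. The 13 mitochondrially encoded messages took 8.21% ± 0.0893 of the FPKM total in Control, 8.24% ± 0.0813 in AOM/DSS and 12.9% ± 1.38 in WMW-H (SD, n = 5), with 15.3% in WMW-H replicate 3. Of 13 immediate early and heat shock genes, a list of handling markers, 11 rose and 1 fell in AOM/DSS against Control and 13 were lower in WMW-H than in AOM/DSS. The part of these differences in the ribosomal protein values was not tested, and in bulk tissue fewer cells of a type and less RNA per cell cannot be told apart.

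Within each group some libraries departed from the rest in the ribosomal protein genes. The departures were counted in this family only, and whether other genes of these libraries departed alike was not tested. Control replicate 2 was the highest of its group for 62 of the 76 genes, and WMW-H replicate 3 was the lowest of its group for 53. WMW-H replicate 2 was the highest of its group for 50 genes, AOM/DSS replicate 2 for 42, and AOM/DSS replicate 4 was the lowest for 41. The departures of the first pair were larger in the shortest messages. For the 21 genes with a coding sequence of at most 375 bases, the median departure from the group mean was 0.18 (log2) in Control replicate 2 and -0.18 in WMW-H replicate 3, against 0.05 and -0.10 for the 55 longer ones. In the short messages AOM/DSS replicate 4 stood at -0.12 and WMW-H replicate 2 at 0.10. Counts are also given without Control replicate 2 and WMW-H replicate 3.

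Ribosomal protein messages took a larger share of the FPKM total in AOM/DSS and WMW-H than in Control. That share was 6.73% ± 0.155 in Control (range 6.63% to 7.003%), 7.91% ± 0.1498 in AOM/DSS (7.75% to 8.09%) and 7.86% ± 0.346 in WMW-H (7.27% to 8.18%). The Control range did not overlap the ranges of the other groups, and the AOM/DSS range lay within that of WMW-H. As a share of the total without the pancreas, gland and Paneth genes, the highest Control library (7.53%) lay just above the lowest WMW-H library (7.52%), so that these 2 groups then overlapped. Divided by median-of-ratios size factors, however, the summed levels of Control (36365 to 38925) and AOM/DSS (37428 to 39599) overlapped, and those of WMW-H (39761 to 43645) lay above both. Small subunit messages summed to 0.687 ± 0.00648 of the large subunit messages in Control, 0.703 ± 0.00160 in AOM/DSS and 0.689 ± 0.00482 in WMW-H. That ratio was higher in each AOM/DSS library (0.701 to 0.705) than in any Control (0.678 to 0.696) or WMW-H library (0.682 to 0.693).

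**Figure D1:**
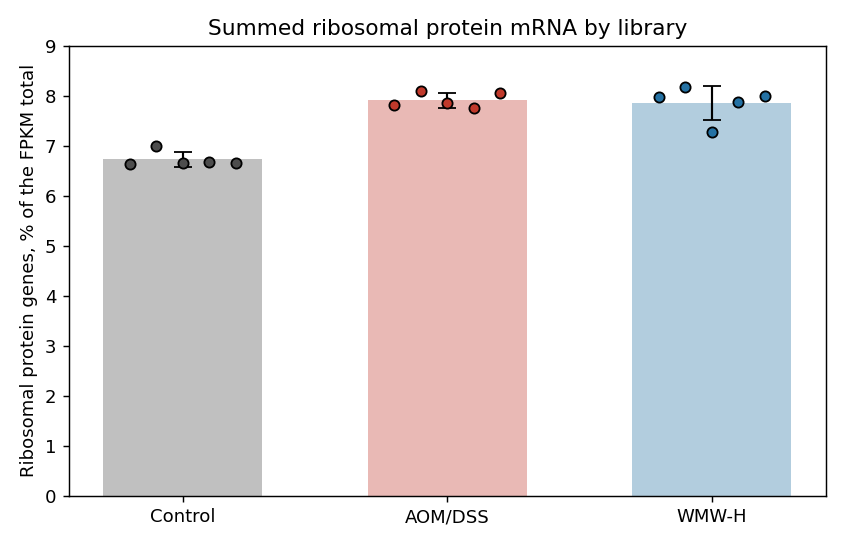
Summed level of the 76 ribosomal protein genes as a percentage of each library's FPKM total (y axis) in the 3 groups (x axis); bars are group means, error bars SD and points the 5 libraries. The Control libraries lie between 6.63% and 7.003%, below the 7.27% of the lowest treated library, which is WMW-H replicate 3; with size factors the Control and AOM/DSS sums overlap.

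The messages of the family differed widely in level. In Control the median gene stood at 415 FPKM, the lowest, Rps20, at 53.7 ± 1.47 FPKM and the highest, Rps14, at 1253 ± 44.1 FPKM (SD, n = 5); these were picked for their place in the order after their values were seen. In AOM/DSS the highest was Rplp0, at 1528 ± 26.4 FPKM. Rps20 was the lowest in all 3 groups, and its principal transcript in GENCODE M21 has 3706 nucleotides for a coding sequence of 357; which transcript length the values were divided by is not given. The median coefficient of variation between libraries was 3.62% in Control, 3.47% in AOM/DSS and 5.72% in WMW-H.

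The first comparison asked how the AOM/DSS colon differed from Control. Rises were small and in 1 direction. At an adjusted p under 0.05 (limma, Benjamini-Hochberg over 12917 genes), 57 of the 76 genes were higher and 0 lower. Of all tested genes 45.5% were higher and 20.6% lower, 66.1% together. The ranges of both groups were separate for 44 genes, all higher in AOM/DSS, against 36.9% of all genes higher and 16% lower without overlap. The median difference was 0.17 on the log2(FPKM + 1) scale, beside 0.12 for all tested genes. Rescaling the libraries by median-of-ratios size factors moved that median of all genes from 0.12 to 0.00 and the share of all calls that were rises from 68.9% to 49.7%. On that scale 22 of the 57 rises remained and 1 of the 57 became a fall, which gave 22 rises and 5 falls in all and a family median of 0.04, beside 30.4% of all genes higher and 30.8% lower. Without Control replicate 2 and WMW-H replicate 3, the count was 67 higher and 0 lower.

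In the small subunit 23 of 30 genes rose, with a median of 0.19; with size factors 10 rose and 1 fell. Rps12, a protein of the beak of the small subunit, read 501, 528, 452, 488 and 476 FPKM in Control, 619, 649, 609, 592 and 637 in AOM/DSS, and 642, 683, 581, 666 and 677 in WMW-H. Every Control library lay below every other library, while AOM/DSS and WMW-H overlapped. Its rise from Control to AOM/DSS was 0.35 ± 0.045 (log2, SE; adjusted p = 3.26e-06), and 0.21 with size factors (adjusted p = 0.000293). Rps13 rose by 0.33 and Rps23, which lies at the decoding centre, by 0.30, each without overlap and each still called with size factors, at 0.20 and 0.17.

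Rps6, the small subunit protein that S6 kinases phosphorylate downstream of mTORC1, read 618, 620.1, 617, 598 and 595 FPKM in Control. It read 738, 729.6, 717, 728 and 731 FPKM in AOM/DSS and 739, 781, 758, 772 and 773 FPKM in WMW-H. Every AOM/DSS library was above every Control library, and every WMW-H library above every AOM/DSS library, the last by a narrow margin. The rise from Control was 0.26 ± 0.019 to AOM/DSS (adjusted p = 3.74e-09) and 0.33 ± 0.019 to WMW-H (adjusted p = 3.08e-10). The step between the 2 treated groups, 0.07 ± 0.019 (adjusted p = 0.00499), was -0.06 after quantile normalization. Rpsa, which sits where mRNA leaves the small subunit and is also known as the laminin receptor, was 0.28 ± 0.024 higher in AOM/DSS than in Control (adjusted p = 1.51e-08).

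In the large subunit 34 of 46 genes rose in AOM/DSS, with a median of 0.15; with size factors 12 rose and 4 fell. Among them were the P stalk genes Rplp0 (0.31), Rplp2 (0.26) and Rplp1 (0.16), of which Rplp0 alone was still called with size factors. Rpl9 and Rpl14 rose by 0.31 each, without overlap, and by 0.18 each with size factors. Rpl13a, which is known as a target of interferon-driven phosphorylation as well as a structural protein, rose by 0.27 ± 0.048 (adjusted p = 0.000124), but by 0.08 with the GC correction described below (adjusted p = 0.154). Rpl22, whose loss has been linked to T cell leukaemia, rose by 0.15 ± 0.030 (adjusted p = 0.000274), but by 0.02 with size factors (adjusted p = 0.54). Rpl5, Rpl12, Rpl23a, Rpl39 and Rps7, which are high in WMW-H below, were not called here, with differences from -0.03 (Rpl39) to 0.06 (Rpl12). With size factors Rps7, Rpl5 and Rpl23a were called lower, at -0.12, -0.10 and -0.13.

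**Figure D2:**
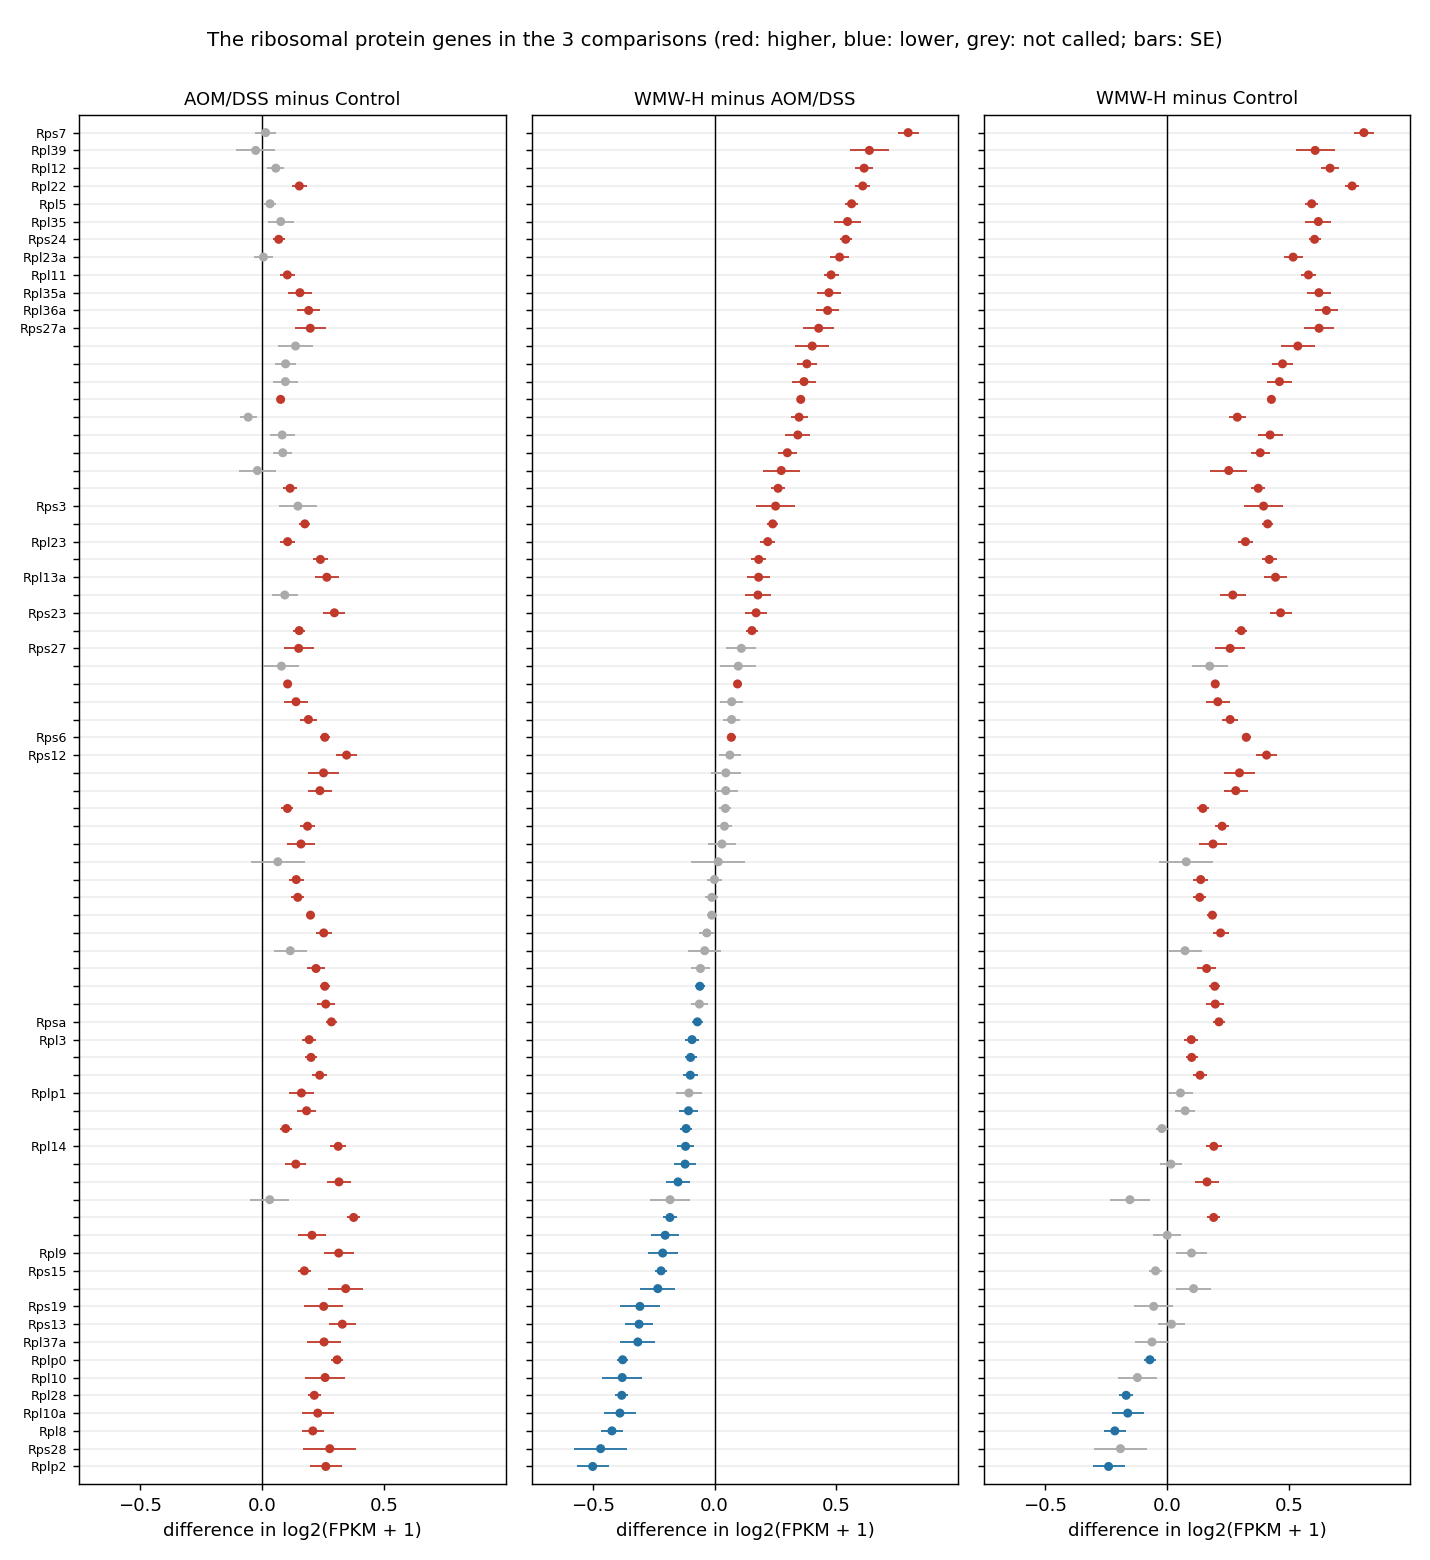
Difference in log2(FPKM + 1) with its SE (x axis) for the 76 ribosomal protein genes (y axis), ordered by WMW-H minus AOM/DSS and labelled where the naming rule picked the gene, in the 3 comparisons; red is called higher, blue called lower and grey not called. In AOM/DSS minus Control 57 points are red and 0 blue, while in WMW-H minus AOM/DSS 31 are red, up to 0.79 for Rps7, and 25 blue, down to -0.50 for Rplp2.

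The second comparison asked how WMW-H differed from AOM/DSS. The family split. Of the 76 genes, 31 were higher and 25 lower. Of all tested genes 25.9% were higher and 40.9% lower, 66.8% together. Without overlap, 26 were higher and 18 lower, against 18.8% and 32.3% of all genes. The median was 0.05, beside -0.07 for all genes, but single genes ran from -0.50 to 0.79. With size factors 42 were higher and 13 lower, beside 31.6% and 33.5% of all genes, and 31 of the 31 rises and 13 of the 25 falls remained. Without Control replicate 2 and WMW-H replicate 3, there were 38 higher and 25 lower.

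The largest rise was that of Rps7, a small subunit protein that also binds Mdm2. It read 373, 396, 395, 384 and 390.1 FPKM in Control, 386, 376, 393, 403 and 399.9 in AOM/DSS, and 702, 725, 589.8, 693 and 696 in WMW-H. Control and AOM/DSS overlapped, and the lowest WMW-H library, replicate 3, lay far above both. The difference was 0.79 ± 0.043 against AOM/DSS (log2, SE; adjusted p = 6.18e-11) and 0.81 ± 0.043 against Control (adjusted p = 5.9e-11). Rpl12, a protein at the base of the stalk that recruits elongation factors, followed the same order. It read 267, 284, 284, 276 and 282 FPKM in Control, 284, 292, 287, 295 and 289.5 in AOM/DSS, and 457, 471, 397, 445 and 451 in WMW-H. Its difference was 0.61 ± 0.036 against AOM/DSS (adjusted p = 1.63e-10).

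Rpl5 and Rpl11 form a particle with 5S ribosomal RNA, which binds Mdm2 and so spares p53 when ribosome assembly fails. Rpl5 read 278, 266, 252, 278 and 265 FPKM in Control, 273, 271, 271, 275 and 278 in AOM/DSS, and 398, 412, 389, 411 and 413 in WMW-H. Rpl11 read 330.4, 342, 337, 337 and 321 FPKM in Control, 352, 369.9, 354, 356 and 359 in AOM/DSS, and 517, 519, 456, 505 and 502 in WMW-H. For both, every WMW-H library was above every other library, and for Rpl11 the AOM/DSS libraries were also above Control. Against AOM/DSS, Rpl5 rose by 0.56 ± 0.026 (adjusted p = 8.61e-12) and Rpl11 by 0.48 ± 0.031 (adjusted p = 6.53e-10). Rpl23, another Mdm2 binding protein, rose by 0.22 ± 0.031 (adjusted p = 1.09e-05).

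A list of 9 genes covered proteins that line the tunnel by which the growing chain leaves the large subunit, or its rim. Of these 8 rose and 0 fell, with a median of 0.35, beside 25.9% and 40.9% of all tested genes. Of the 76 ribosomal protein genes 31 rose and 25 fell, with a median of 0.05. The list was chosen with earlier results of these data known. Rpl19, named here after its value was seen, was the one not called, at -0.01. Rpl39, a very short protein in the tunnel wall, read 72.8, 93.5, 71.1, 79.1 and 70.0 FPKM in Control, 73.5, 84.9, 73.6, 65.4 and 81.3 in AOM/DSS, and 121, 128, 104, 115 and 123 in WMW-H. All WMW-H libraries lay above the others, which overlapped, and the difference from AOM/DSS was 0.64 ± 0.080 (adjusted p = 2.32e-06). Rpl35, at the rim, rose by 0.55 ± 0.054 (adjusted p = 1.36e-07), and Rpl23a, which contacts the signal recognition particle, by 0.51 ± 0.039 (adjusted p = 5.7e-09). Its neighbour at the tunnel wall, Rpl4, named after its value was seen, rose by 0.35 ± 0.017 (adjusted p = 1.18e-11).

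Rpl22, Rps24, Rps27a and Rps3 were among the large rises or were followed in every comparison. Rpl22 read 156, 168, 157, 158 and 155 FPKM in Control, 169.7, 178, 174, 175 and 187 in AOM/DSS, and 265, 282, 259.7, 271 and 272 in WMW-H, so that the 3 groups did not overlap. It rose by 0.61 ± 0.030 from AOM/DSS to WMW-H (adjusted p = 2.02e-11). Rps24, a Diamond-Blackfan anaemia gene, rose by 0.54 ± 0.025 (adjusted p = 8.41e-12), and Rps27a, which is made as a fusion with ubiquitin, by 0.43 ± 0.063 (adjusted p = 1.48e-05). Rps3, a protein at the mRNA entry with a second role in DNA repair, was 0.25 ± 0.079 higher (adjusted p = 0.0105), but its AOM/DSS and WMW-H libraries overlapped. Of 19 genes mutated in Diamond-Blackfan anaemia, 10 rose and 3 fell, with a median of 0.24. Of all tested genes 25.9% rose and 40.9% fell, and of the 76 ribosomal protein genes 31 rose and 25 fell.

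Among the genes that fell were Rplp0 and Rplp2 of the P stalk, while Rpl12, at its base, rose as given above. The P stalk, made of Rplp0 and pairs of Rplp1 and Rplp2, binds the factors that hydrolyse GTP during elongation. Rplp0 read 1223, 1247, 1239, 1234 and 1229 FPKM in Control, 1496, 1530.4, 1526, 1518 and 1569 in AOM/DSS, and 1203, 1215, 1104, 1168 and 1195 in WMW-H. Every AOM/DSS library was above, and every WMW-H library below, every Control library. The fall from AOM/DSS to WMW-H was -0.38 ± 0.023 (adjusted p = 3.81e-10), and the difference of WMW-H from Control was -0.07 ± 0.023 (adjusted p = 0.017), which became 0.18 after quantile normalization. Rplp2 read 273, 325, 262, 291 and 264 FPKM in Control, 348, 359, 329, 313 and 345 in AOM/DSS, and 240.3, 253, 205, 235 and 266 in WMW-H. Its fall of -0.50 ± 0.066 (adjusted p = 4.08e-06) was the largest of the family, with no overlap between the treated groups. Rplp1 was not called, at -0.10 ± 0.052 (adjusted p = 0.0841).

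The genes Rpl3, Rpl8 and Rpl10, whose proteins reach toward the peptidyl transferase centre, where the peptide bond forms, all fell from AOM/DSS to WMW-H. Of all tested genes 40.9% fell, and of the 76 ribosomal protein genes 25 fell. Rpl8 read 749, 775, 761, 769.9 and 779 FPKM in Control, 871, 891, 881, 896 and 888 in AOM/DSS, and 697, 690.3, 561, 667 and 702 in WMW-H. The 3 groups did not overlap, with WMW-H lowest and its replicate 3 well below the other 4. The fall was -0.42 ± 0.045 for Rpl8 (adjusted p = 3.93e-07), -0.38 ± 0.081 for Rpl10 (adjusted p = 0.000584) and -0.09 ± 0.029 for Rpl3 (adjusted p = 0.0108). Rpl10 is uncertain, because a near copy, Rpl10-ps3, is listed at 569, 692 and 596 FPKM as group means and the 2 may share reads. The fall of Rpl3 was called neither with size factors nor with the GC correction. Rps28, Rpl10a, Rpl28 and Rpl37a also fell without overlap, at -0.47, -0.39, -0.38 and -0.31. Rps19, the gene first linked to Diamond-Blackfan anaemia, fell by 0.31 ± 0.081 (adjusted p = 0.00306).

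**Figure D3:**
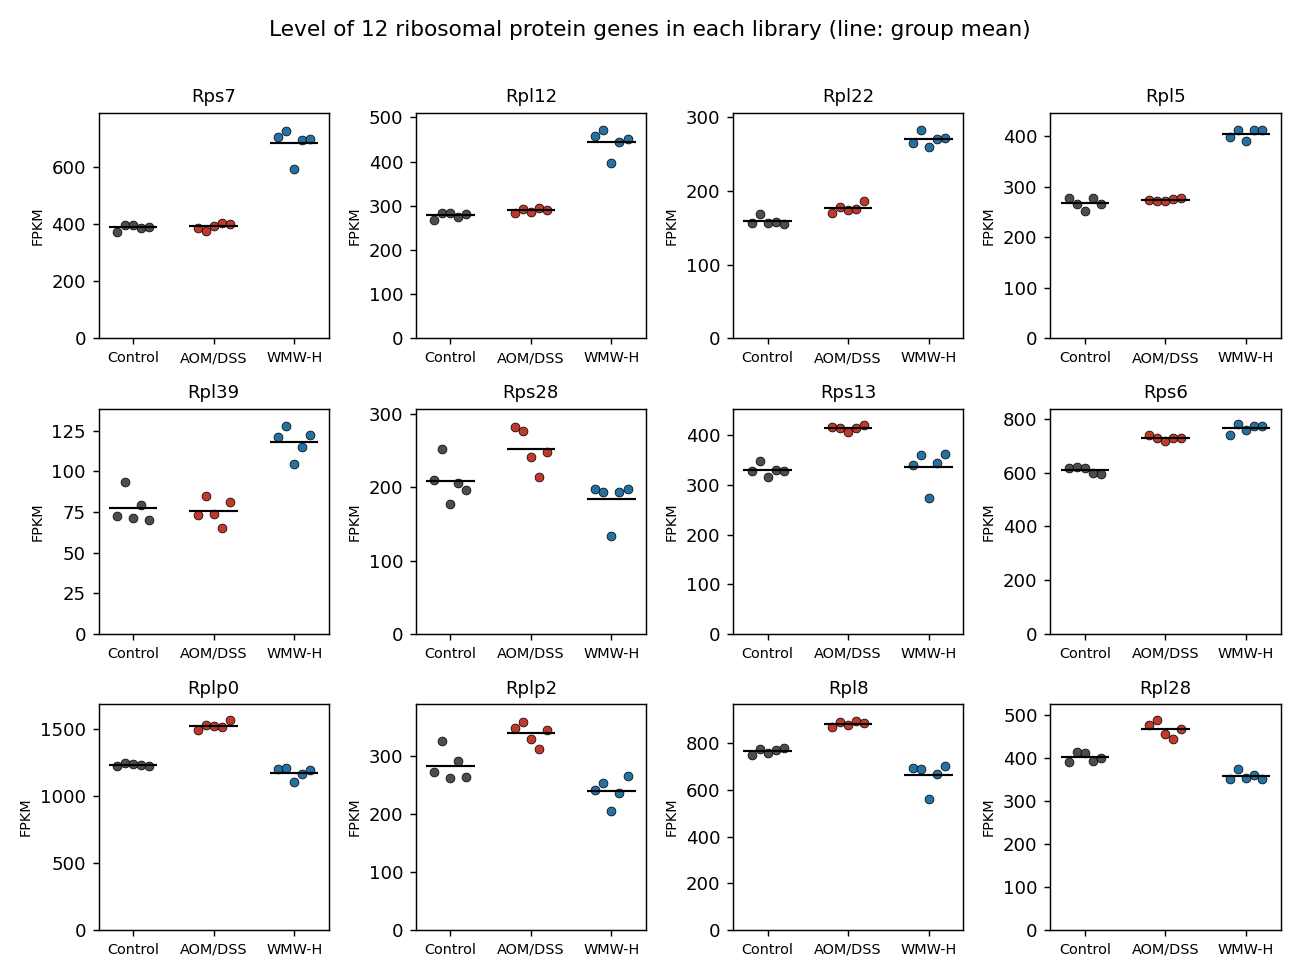
Level in FPKM (y axis, from 0) of 12 ribosomal protein genes in each library of the 3 groups (x axis), with the group mean as a line. Rps7, Rpl12, Rpl22, Rpl5 and Rpl39 are highest in WMW-H, while Rps28, Rps13, Rplp0, Rplp2, Rpl8 and Rpl28 are highest in AOM/DSS; for Rps7 the means are 388, 391 and 681 FPKM.

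The split went in part with the GC content of the coding sequence, which ran from 44.9% in Rpl30 to 61.6% in Rpl36. Across the 76 genes, Pearson's r between GC and the WMW-H minus AOM/DSS difference was -0.56. Across 12809 other tested genes it was -0.33. By rank the values lay closer together, with a Spearman's rho of -0.58 in the family and -0.50 in the other genes. These are correlations over genes of the same libraries and carry no test. The median difference was 0.34 for the 15 ribosomal protein genes with 46 to 50% GC and -0.07 for the 22 with 54 to 58%, beside 0.11 and -0.20 for other genes of the same classes. In AOM/DSS minus Control r was 0.25, and 0.17 in other genes, and in WMW-H minus Control -0.58 and -0.13. Spearman's rho was 0.27 in both gene sets for AOM/DSS minus Control. For WMW-H minus Control it was -0.57 in the family and -0.24 in other genes.

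Each library was then corrected for coding GC over all genes. The correction brought r in the other genes to between -0.01 and 0.00, but in the ribosomal protein genes it left -0.14 in WMW-H minus AOM/DSS and -0.33 in WMW-H minus Control, and turned the 0.25 of AOM/DSS minus Control into -0.37. After the correction 48 ribosomal protein genes were higher and 12 lower in WMW-H than in AOM/DSS, with a median of 0.15, beside 29.7% and 28.5% of all genes and a median of 0.01. Of the 31 rises 29 remained, and of the 25 falls 10 remained and 6 became rises. Rps7 stood at 0.75, Rpl12 at 0.76, Rpl35 at 0.70, Rpl5 at 0.39, Rplp0 at -0.18, Rplp2 at -0.28 and Rpl10 at -0.35, all still called. Rps28 and Rps19 were no longer called, at -0.24 and -0.10. Of the 9 tunnel genes 9 were then higher, with a median of 0.34. In AOM/DSS against Control the same correction left 16 higher and 11 lower, with a median of 0.02, beside 27.2% and 32.3% of all genes; 15 of the 57 rises remained and 5 became falls. Rps12, Rps13, Rps23, Rpl9, Rpl14, Rps6, Rpsa and Rplp0 were among those still called higher, at 0.20, 0.16, 0.17, 0.21, 0.14, 0.13, 0.08 and 0.12.

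**Figure D4:**
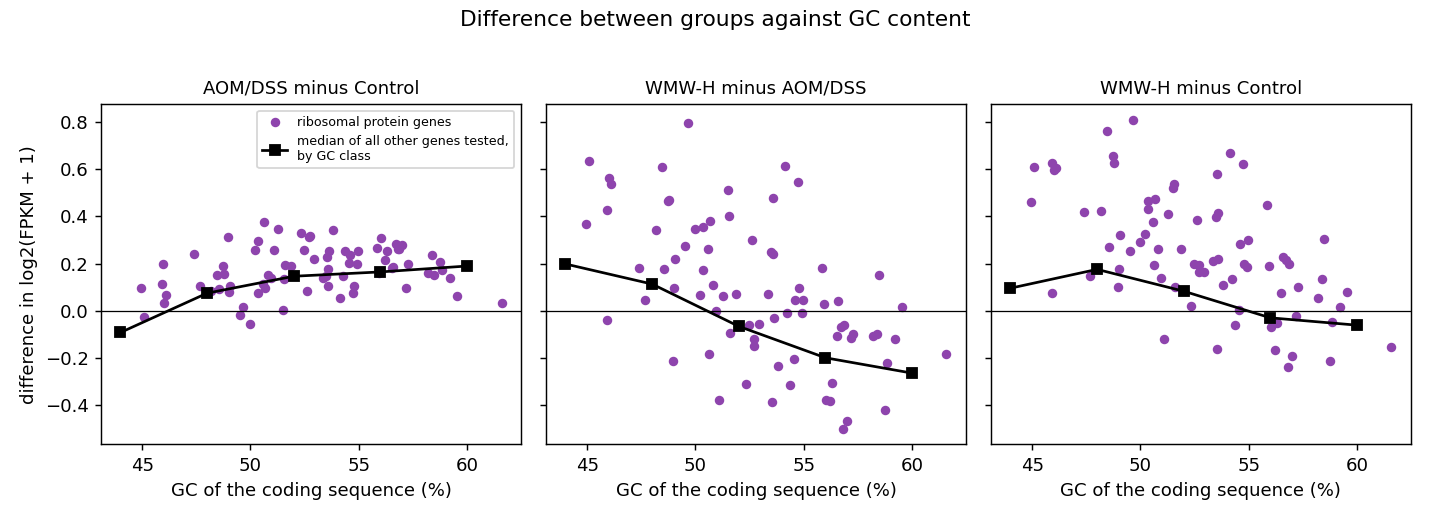
Difference in log2(FPKM + 1) (y axis) against GC of the coding sequence in percent (x axis) for the 76 ribosomal protein genes (points) in the 3 comparisons, with the median of all other tested genes by GC class (squares and line). In WMW-H minus AOM/DSS both fall with GC, the line from 0.20 to -0.26, and the ribosomal protein genes spread widely around it.

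The third comparison set WMW-H against Control. Most of the family was higher. There were 54 genes higher and 5 lower. Of all tested genes 35.4% were higher and 24.1% lower, 59.5% together. Without overlap, 42 were higher and 4 lower, against 25.3% and 17% of all genes. The median was 0.21, beside 0.05 for all genes, and with size factors 51 were higher and 8 lower, beside 29.6% and 29.5% of all genes. Without Control replicate 2 and WMW-H replicate 3, 63 were higher and 5 lower. With the GC correction 46 were higher and 6 lower, with a median of 0.16, beside 25.4% and 29.7% of all genes. This comparison shares its libraries with the other 2, so the 3 sets of values are not independent.

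The largest rises above Control were those of Rps7 at 0.81, Rpl22 at 0.76, Rpl12 at 0.67, Rpl36a at 0.65, and Rps27a, Rpl35a and Rpl35 at 0.62. Rps27a read 291, 337, 275, 280.0 and 284 FPKM in Control, 319.6, 353, 329, 325 and 352 in AOM/DSS, and 474, 488, 383, 442 and 479.6 in WMW-H. Its WMW-H libraries lay above all others, while Control replicate 2 reached into the AOM/DSS range. Rpl13a rose by 0.45, Rps3 by 0.40, Rpl23 by 0.32, Rps27 by 0.26 and Rpsa by 0.21, while Rplp1, Rps19 and Rpl10 were not called. The rise of Rps27 was 0.13 with the GC correction (adjusted p = 0.0595). All 9 tunnel genes were higher than in Control, with a median of 0.43, beside 35.4% of all tested genes and 54 of the 76 ribosomal protein genes. With the GC correction 8 of the 9 were higher, with a median of 0.29. The 5 genes below Control were Rplp2 at -0.24, Rpl8 at -0.21, Rpl28 at -0.17, Rpl10a at -0.16 and Rplp0 at -0.07. For Rpl10a the adjusted p was 0.0476, and over the alternatives it ran up to 0.143. All 5 belong to the large subunit, in which 34 of 46 genes rose, while in the small subunit 20 of 30 rose and 0 fell. Of all tested genes 24.1% were lower. With size factors 7 genes of the large subunit and 1 of the small subunit were lower.

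Ribosomal protein genes that the symbol rule leaves out behaved unevenly. Rps3a1, a small subunit protein, read 512, 528, 507, 515 and 522 FPKM in Control, 513, 521, 527, 533 and 544 in AOM/DSS, and 628, 627, 555, 615 and 629 in WMW-H. Only the WMW-H libraries stood apart, all above the rest, with a rise of 0.21 ± 0.030 over AOM/DSS (adjusted p = 1.15e-05). Rack1, a scaffold on the small subunit, rose by 0.18 ± 0.040 in AOM/DSS (adjusted p = 0.000794) and fell by 0.22 ± 0.040 from there to WMW-H (adjusted p = 0.000144); neither held after the GC correction. Fau, made as a fusion with a ubiquitin-like protein, fell by 0.19 ± 0.049 from AOM/DSS to WMW-H (adjusted p = 0.00292), which became 0.07 with the GC correction.

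Of 9 paralogs outside the rule, 5 were tested. Rpl22l1, the paralog of Rpl22, read 44.4, 51.1, 40.02, 43.96 and 43.5 FPKM in Control, 28.1, 31.9, 29.6, 31.4 and 37.7 in AOM/DSS, and 46.6, 50.2, 27.2, 49.4 and 39.3 in WMW-H. It fell by 0.48 ± 0.13 in AOM/DSS (adjusted p = 0.00373), with no overlap with Control, where Rpl22 rose. The WMW-H libraries spanned both groups. Rpl36al fell by 0.16 ± 0.034 in AOM/DSS (adjusted p = 0.000546), and Rps27l, known as a p53 target, was 0.39 ± 0.052 higher in WMW-H than in Control (adjusted p = 7.52e-06). Rpl7l1 was not called in any comparison. Rps27rt, a near copy of Rps27 with a mean of 13.5 FPKM in Control, may hold reads of Rps27, and its difference of WMW-H from Control was 0.32 ± 0.13 (adjusted p = 0.0405), a call that held in 12 of 27 alternatives, with an adjusted p of up to 0.222. Rpl10l, a testis paralog, was listed at 0 in all libraries.

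Genes that share the TOP control or act beside the ribosome were also split. Of 14 other TOP messages 11 rose and 2 fell in AOM/DSS against Control, and 8 were up and 6 down from AOM/DSS to WMW-H. From Control to WMW-H 10 were up and 3 down. The shares of all tested genes up and down were, in the same order, 45.5% and 20.6%, 25.9% and 40.9%, and 35.4% and 24.1%. Tpt1 encodes the translationally controlled tumour protein. It read 1191 to 1302 FPKM in WMW-H, against 611 to 629.7 in AOM/DSS and 626 to 669.7 in Control. Its rise over AOM/DSS was 1.01 ± 0.023 (adjusted p = 8.94e-16). Eef2, the elongation factor that works on the P stalk, went the other way, with 1354 ± 14.8 FPKM in AOM/DSS and 946 ± 31.8 in WMW-H, a fall of -0.52 ± 0.022 (adjusted p = 3.04e-12). Eef1a1, which brings in the aminoacyl-tRNA, rose at both steps, with 2903 ± 41.2, 3413 ± 32.1 and 3730.5 ± 34.3 FPKM in Control, AOM/DSS and WMW-H. Pabpc1, the poly(A) binding protein, was at 204 ± 3.21, 383 ± 4.73 and 323 ± 20.4 FPKM.

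Of 31 initiation factor genes 20 rose and 4 fell in AOM/DSS against Control (7 and 8 with size factors). From AOM/DSS to WMW-H 10 were up and 16 down (12 and 11 with size factors). Of all tested genes 45.5% rose and 20.6% fell at the first step, and 25.9% and 40.9% at the second. With size factors these shares were 30.4% and 30.8%, then 31.6% and 33.5%. Eif2s2 fell from 82.8 ± 2.37 to 52.4 ± 1.24 FPKM in AOM/DSS and stood at 94.5 ± 3.50 FPKM in WMW-H. Of 18 regulators of ribosomal protein synthesis 12 rose and 3 fell in AOM/DSS (7 and 4 with size factors), and 2 rose and 12 fell from there to WMW-H (3 and 8 with size factors), with a median of -0.22. Myc, which drives ribosome production, was at 12.8 ± 0.57 FPKM in Control, 21.4 ± 1.69 in AOM/DSS and 16.4 ± 0.74 in WMW-H, a rise of 0.70 ± 0.050 and then a fall of -0.36 ± 0.050 (adjusted p = 1.9e-09 and 7.05e-06). Akt1, a kinase upstream of mTORC1, rose by 0.24 ± 0.021 and fell by 0.31 ± 0.021. The rise was 0.03 after the GC correction (adjusted p = 0.18). The list also holds genes that restrain protein synthesis, so its counts give no direction for the pathway. Of these, Eif4ebp2 stood at 0.30 ± 0.028 in AOM/DSS against Control and at -0.43 ± 0.028 in WMW-H against AOM/DSS. For Eef2k the values were 0.33 ± 0.040 and -0.44 ± 0.040. Tsc2 stood at -0.48 ± 0.033 in WMW-H against AOM/DSS.

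**Figure D5:**
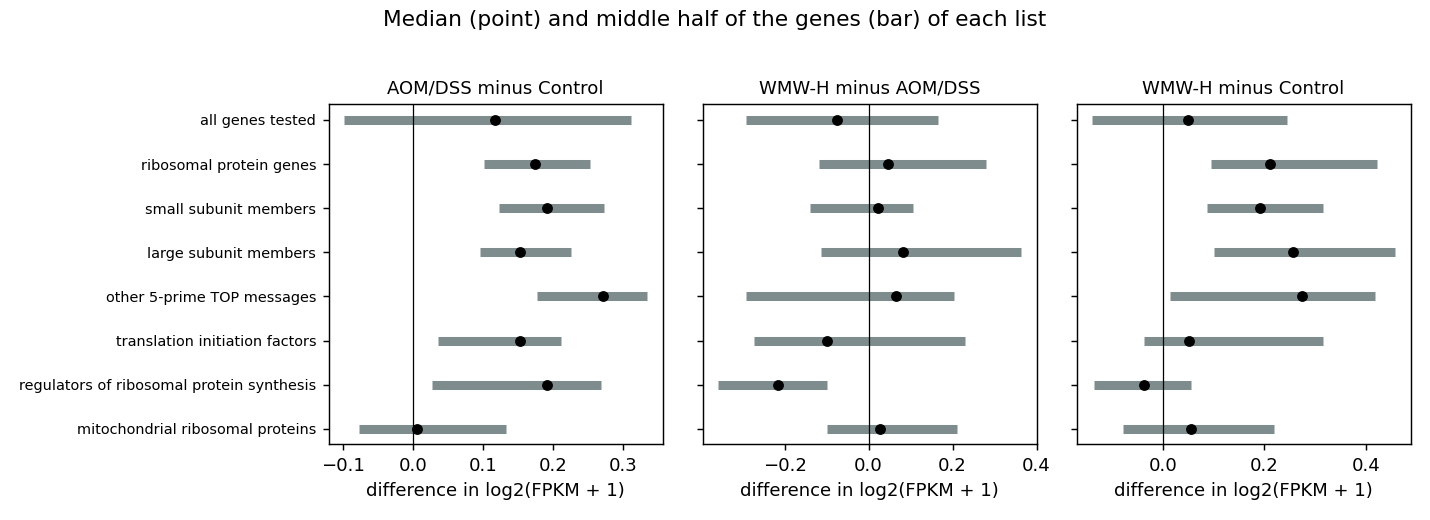
Median (point) and middle 50% of the genes (bar) of the difference in log2(FPKM + 1) (x axis) for all tested genes, the ribosomal protein genes, their subunits and 4 further lists (y axis) in the 3 comparisons. The ribosomal protein medians of 0.17, 0.05 and 0.21 lie to the right of the medians of all genes, 0.12, -0.07 and 0.05.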

How the data were processed

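The authors deposited 1 table of FPKM values for 22063 genes in 15 libraries. Per the labels' protocols, poly(A) RNA was selected with oligo(dT) beads and prepared with a NEBNext Ultra kit. Tools listed in the submitters' processing notes are RSEM, HISAT2, StringTie 1.3.1, Bowtie2 2.2.8 and fastp 0.18.0. The genome build was not given in the sources used here. The members and gene lists were chosen with earlier results of these data known.

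The test took the 12917 genes that reached 1 FPKM in 5 or more libraries. Their log2(FPKM + 1) was fitted in R 4.3.3 by limma 3.58.1 with a variance trend, over the 3 groups together. Tests were two-sided with Benjamini-Hochberg adjustment and a threshold of 0.05. The scale slightly understates the change of low genes. The labels do not say that libraries came from separate animals, so p-values measure only the spread between libraries. The fit was also run on simulated data, and the outcome is not given here.

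Depth was read from 3328 genes with 1 transcript in GENCODE M21, where 90.2% of low values lay within 0.1 of a whole fragment. FPKM from multi-transcript genes did not allow a count test. Coding GC and transcript lengths came from GENCODE M21, in which 76 of 76 members were found, and 12885 of the tested genes had a GC value. The GC correction subtracted a loess curve (span 0.3) per library.

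The genes named were, per comparison, the 8 largest rises and 8 largest falls among called members without overlap, called members against the main direction, 17 fixed members, the paralogs, and up to 4 called genes of each other list; some genes that this rule picks are not reported here. Alternatives were other scalings (size factors, TPM, quantile normalization, a total without pancreas, gland and Paneth genes), a pseudocount of 0.1, no filter or one at 5 FPKM, a replicate block, a fit of the compared groups alone, no variance trend and each library left out. Figures were drawn with matplotlib 3.10.9.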

Additional observations from a re-analysis of the deposited data

Results flagged for a closer look

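For the named ribosomal protein genes and their summed share, each group of 5 libraries was searched for 1 library whose gap to its nearest neighbour was over 0.71 of the whole range. This found 18 of 108 groups. Chance gives about 1 in 20 for independent groups. These groups are genes read in the same libraries, so the count cannot be set against that rate. Control replicate 2 and WMW-H replicate 3 supplied 17 of the 18.

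Control replicate 2 stood above its group for 9 values. It read 311 FPKM for Rpl14, 168 for Rpl22, 285 for Rpl35a, 319 for Rpl37a, 461 for Rpl9, 265 for Rps23, 552 for Rps24 and 337 for Rps27a, and its summed share was 7.003%.

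WMW-H replicate 3 stood below its group for 8 genes. It read 357 FPKM for Rpl10a, 456 for Rpl11, 513 for Rpl3, 218 for Rpl37a, 561 for Rpl8, 274 for Rps13, 134 for Rps28 and 589.8 for Rps7. The remaining value was that of Rpl35a in AOM/DSS replicate 4, at 257 FPKM, below the other 4 libraries.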

How the results depend on the processing

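Counts and medians depended on scaling. For AOM/DSS against Control, with size factors 22 genes were higher and 5 lower (median 0.043), with the coding GC correction 16 and 11 (median 0.020), and with quantile normalization the median was 0.26. For WMW-H against AOM/DSS, size factors gave 42 higher and 13 lower (median 0.12) and the GC correction gave 48 higher and 12 lower (median 0.15). Its median was -0.0073 with TPM, -0.027 with quantile normalization and -0.0010 with the total without the pancreas, gland and Paneth lists. For WMW-H against Control, 8 were lower with size factors, 8 with that reduced total and 3 without the variance trend, and the medians were 0.16 with size factors, 0.15 with the reduced total and 0.16 with the GC correction. The summed level of AOM/DSS was 1.14 times that of Control, and 1.04 times with size factors. WMW-H was at 1.03 times AOM/DSS, 0.993 with TPM, 0.998 with the reduced total and 1.09 with size factors.

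Of the named genes that passed the threshold before or after the change of setting, some changed sign; sign changes of genes called under neither are not listed. In AOM/DSS against Control these were, with the GC correction, Fau (-0.14), Rack1 (-0.00290), Rpl11 (-0.081) and Rplp1 (-0.060), and with size factors Rpl11 (-0.028), Rpl23 (-0.027), Rpl5 (-0.10) and Rps3a1 (-0.10). In WMW-H against AOM/DSS they were Fau (0.069), Rplp1 (0.15), Rps15 (0.039) and Rpsa (0.15) with the GC correction, Rps6 (-0.062) with quantile normalization and Rpsa (0.0069) with size factors. In WMW-H against Control they were Rpl3 (-0.00493) with the GC correction and Rplp0 (0.18) with quantile normalization. The cause was not tested.

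Leaving out each library in turn gave 53 to 66 genes higher in AOM/DSS, 31 to 36 higher and 23 to 27 lower in WMW-H against AOM/DSS, and 54 to 60 higher and 4 to 6 lower in WMW-H against Control. No pairing by the labels' replicate numbers was seen in the values. The correlation of same-numbered deviations ran from -0.05 to 0.03 over 15 pairs, and from -0.07 to 0.06 over 60 pairs with different numbers. Of the 15 libraries 1 correlated best with its own number. A shared batch or day was not tested. With the replicate block 59 and 0, 33 and 27, and 54 and 6 genes were higher and lower in the 3 comparisons. The GC correction and the joint omission of Control replicate 2 and WMW-H replicate 3 were chosen after seeing the data. Spread limits what could be called in the shortest messages, such as Rps29, with a coefficient of variation of 14.2% in Control, the highest of the 76 there.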

Other observations

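The mitochondrial ribosome, which is built from nuclear genes of its own and translates the mitochondrially encoded messages, moved in both directions. Of 77 genes tested, 17 rose and 11 fell in AOM/DSS against Control, with a median of 0.01. Of all tested genes 45.5% rose and 20.6% fell. With size factors 2 of the 77 rose and 34 fell, beside 30.4% and 30.8% of all genes. With the GC correction 3 rose and 45 fell, beside 27.2% and 32.3% of all genes. From AOM/DSS to WMW-H 25 rose and 17 fell (38 and 13 with size factors, 38 and 4 with the GC correction). The shares of all genes were 25.9% and 40.9% (31.6% and 33.5% with size factors, 29.7% and 28.5% with the GC correction). From Control to WMW-H 25 rose and 12 fell (18 and 19 with size factors, 14 and 17 with the GC correction). The shares of all genes were 35.4% and 24.1% (29.6% and 29.5% with size factors, 25.4% and 29.7% with the GC correction). Mrps22, of its small subunit, was at 8.73 ± 1.14 FPKM in Control, 6.87 ± 0.75 in AOM/DSS and 15.7 ± 1.02 in WMW-H (SD, n = 5), a rise of 1.09 ± 0.081 over AOM/DSS (adjusted p = 4.12e-09). Mrpl30 rose by 0.64 ± 0.035 (adjusted p = 6.62e-11), while Mrps6 fell by 0.57 ± 0.052 (adjusted p = 5.13e-08), each with no overlap between the groups. No test compared this list with the cytosolic one.

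Many ribosomal protein genes carry small nucleolar RNAs, which guide the modification of ribosomal RNA, in their introns. An annotated one lay within 29 of the 76 genes and within none of the other 47. The median differences of the 29 and the 47 were 0.19 and 0.17 for AOM/DSS against Control, 0.07 and 0.03 for WMW-H against AOM/DSS, and 0.26 and 0.19 for WMW-H against Control.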
